A study of Mus musculus with 9 samples.

Results

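The regions described here are 1 kb tiles of the mouse autosomes in which few CpG positions were read, with no tile of many read positions close by, and which carried almost no methylation in cells expressing wild-type Dnmt3a2. There were 2225 of them among 46090 tiles of the same kind, or 4.83%. Tiles were counted from base 1 of chromosomes 1 to 19, in the build mm9. A tile was taken when it had 5 to 15 positions covered by 20 or more reads in the wild-type pool, a mean methylation there under 2%, and no tile with 20 or more deposited positions within 2 tiles on either side, itself included. A position is 1 CpG cytosine on 1 strand. The rule counts positions that were read, so "sparse" and "dense" below describe read positions and not every CpG in the DNA. The 35149 tiles that met the same conditions but held 20% or more served as the comparison, and the other 8716 lay between. Comparison values are weighted to the number of positions per tile of the unmethylated tiles unless stated. The tiles were selected on the wild-type values, which are therefore given as a description only.

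All cells were J1 mouse embryonic stem cells labelled Dnmt TKO, at passages 7 to 10, including the controls. The labels give 9 samples in 5 groups. TKO (1 sample) carried no construct. WT, WWD and R (2 samples each) carried wild-type Dnmt3a2 or a mutant Dnmt3a2 named only by those letters, and C (2 samples) is listed without a construct. The series' title places the engineering in a domain of Dnmt3a that recognises histones. What the letters change in the protein, how the constructs were driven, whether each line was a single clone and how much protein each made are not stated in the labels, and none was measured here. One table was deposited per group, so there is no spread between replicates, and every test below compares pools of reads, not conditions. A lower activity or amount of a construct and a different choice of targets cannot be told apart.

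Dnmt3a places methyl groups on CpGs that carry none, and Dnmt3a2 is its shorter isoform, abundant in embryonic stem cells. Its ADD domain binds the tail of histone H3 when lysine 4 is unmethylated, and this contact relieves an inhibition of the catalytic domain. Promoters and CpG islands, the dense clusters of CpGs at many gene starts, usually carry methylated lysine 4 and lack DNA methylation. In cells without the 3 active Dnmt enzymes, methylation seen after adding a construct is new, so a tile low in WT is one where the construct left little.

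The assay was reduced representation bisulfite sequencing (RRBS). DNA is cut at CCGG, short fragments are kept, and bisulfite turns unmethylated cytosines into thymine, so the percent of reads with C at a CpG is its methylation level. Cytosines that escaped conversion read as methylated, and the 2 cannot be told apart. The nuclear read calls (reads summed over positions) numbered 133646344 in TKO to 210131898 in R, with a median of 66 (C) to 104 (WT) reads per position. The tiles were well covered. The median over unmethylated tiles of their mean coverage was 115 reads in WT, 122 in R, 99 in WWD, 87 in C and 103 in TKO, and 125, 139, 97.1, 86.8 and 102 in the comparison tiles in that order.

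The unmethylated tiles formed a small low end of the wild-type distribution. Of the 46090 tiles, 250 had a mean of 0% in WT, 1321 lay above 0% and up to 1%, and 654 from there to 2%. A further 1376 lay between 2% and 5%, 2215 between 5% and 10%, and 5125 between 10% and 20%. Most tiles were partly methylated, with 17409 between 20% and 40%, 15954 between 40% and 60%, and 1786 at 60% or more. The limit of 2% on the mean also bounds each position in WT, so the levels of single positions only describe the tiles chosen. In 1762 of the 2225 tiles every position was under 5% in WT, and 56 tiles had a position at 10% or more.

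Both mutants left these tiles nearly unmethylated. In R the median tile held 0.709% (quartiles 0.246% and 1.69%, 2217 tiles read at 5 or more positions with 10 or more reads), where the comparison tiles held 41.2% (33.2% and 49.5%). In WWD the median was 0.499% (0.124% and 1.38%, 2014 tiles) against 18.0% (12.1% and 24.9%). The C pool held 0.115% (2200 tiles) against 0.394%, and TKO 0.109% (1869 tiles) against 0.194%. The chosen tiles were therefore also lower in the pools that made almost no methylation. Their medians were below those of the comparison tiles in 19 of 19 autosomes in each of R, WWD, C and TKO. The tiles of a class share the pools, so these counts describe the pools.

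**Figure D1:**
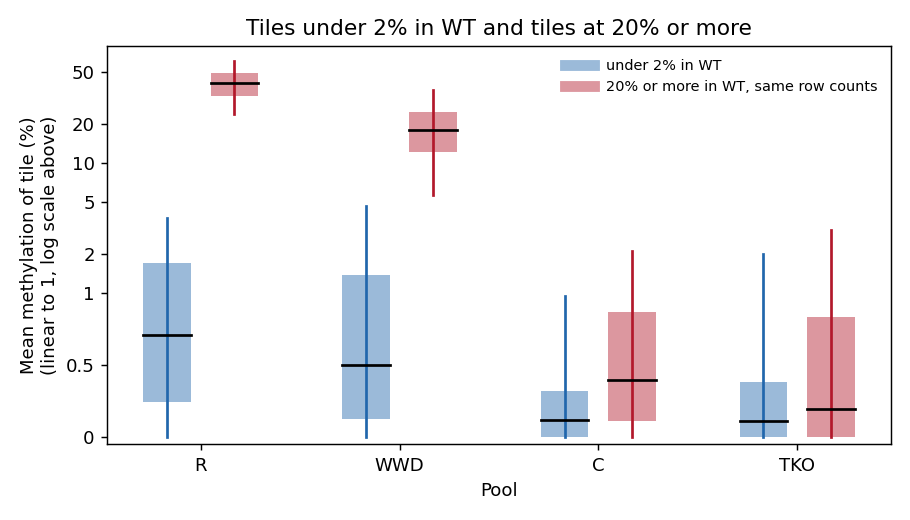
Mean methylation of tiles in R, WWD, C and TKO, in percent on an axis that is linear to 1% and logarithmic above. Boxes span the quartiles, black lines are medians and thin lines run from the 5th to the 95th percentile over tiles, in blue for tiles under 2% in WT and in red for tiles at 20% or more, weighted to the same numbers of positions. The R and WWD boxes of the 2 classes do not overlap, with medians of 0.709% against 41.2% and 0.499% against 18.0%.

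Of the unmethylated tiles with a level in the pool, none reached 20% in R or WWD. In R, 1786 of 2217 tiles (80.6%) were under 2% as well, 46 (2.07%) were at 5% or more, and 1 was at 10% or more. In WWD, 1680 of 2014 (83.4%) were under 2%, 91 (4.52%) at 5% or more, and 10 at 10% or more. There were 10 tiles at 5% or more in both. Of the comparison tiles, 34610 of 35104 (98.6%) held 20% or more in R, where the lowest held 9.79%, and 14246 of 33158 (43.0%) did so in WWD. The ranges of the 2 classes in R met only at their ends, since the highest unmethylated tile held 13.4%. In WWD they overlapped, from 0% to 15.3% in the unmethylated tiles and from 0% to 85.3% in the comparison tiles, of which 200 were under 2%.

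Selecting on R in place of WT found mostly the same tiles. Of 46022 tiles read in both pools, 1918 were under 2% in R and 2217 in WT. They shared 1786, which is 80.6% of the WT list and 93.1% of the R list. Among the tiles low in R, the highest WT level was 6.83%, and 8 held 5% or more in WT.

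The small amount of methylation left in R was above that of C. Summed over the tiles, R held 0.991% (95% Wilson interval 0.980% to 1.003%) of 2682117 read calls and WWD 0.565% (0.554% to 0.575%) of 1894359. C held 0.197% (0.191% to 0.204%) and TKO 0.179% (0.173% to 0.186%). These intervals cover counting error only, and PCR copies are not separate molecules. By tile, the R level exceeded that of C in 1740 of 2203 tiles (79.0%), with a median difference of 0.525 points, beside 24.09 points over all tiles tested.

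Each pair of pools was tested by the two-sided Fisher's exact test on the summed reads of every nuclear tile with 5 or more positions read in both pools, with Benjamini-Hochberg adjustment over all tiles. Calls needed a difference of 10 points or more between the means over positions, together with an adjusted p below 0.01. A molecule counts once for each CpG it covers, so these p-values are too small. R was called higher than C in 1 of 2203 unmethylated tiles (0.0454%), against 63.6% of all 75464 tiles tested and 34412 of 34418 comparison tiles. WWD was called higher than C in 7 of 2020 (0.347%), against 44.3% of all 71925 tiles and 25700 of 32876 comparison tiles (78.2%). R was called higher than WWD in 1 of 2020 (0.0495%), against 53.4% of all 73112 tiles and 30730 of 33236 comparison tiles (92.5%). No unmethylated tile was called lower by 10 points in any of these comparisons. Against C such a call had little room, since the highest C level in these tiles was 4.09%.

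Smaller differences passed the test more often, though still less than elsewhere. With a minimum of 5 points, R was called above C in 33 tiles (1.5%; background 68.6%), WWD above C in 61 (3.02%; background 57.5%) and R above WWD in 9 (0.446%; background 60.3%). With no minimum difference R passed in 603 of 2203 tiles (27.4%; background 80.3%), with a median rise of 2.07 points in them. WWD passed against C in 295 (14.6%; background 72.7%), and R against WWD in 235 (11.6%; background 69.0%), with 52 in the opposite direction. Against C, the opposite direction passed in 13 tiles for R and 8 for WWD. Counting each tile's reads once, by dividing its counts by the number of positions, left 4, 0 and 2 tiles with no minimum difference and 0, 0 and 0 at 10 points.

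In points, R and WWD were close to each other in the unmethylated tiles. Both were low there, which bounds the difference in points. Over summed reads R held 0.991% and WWD 0.565%. Of 2012 tiles read in both, 1132 were higher in R, 818 in WWD and 62 equal, and the median difference over the tiles tested was 0.0861 points beside 12.15 points over all tiles tested. The autosomal median was higher in R than in WWD in 17 of 19 autosomes. Of these tiles 34 (1.69%) reached 5% in R, 91 (4.52%) in WWD and 10 in both, which is 29.4% of the R list and 10.99% of the WWD list. Both pools are read at the same positions, and the overlap was not tested.

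**Figure D2:**
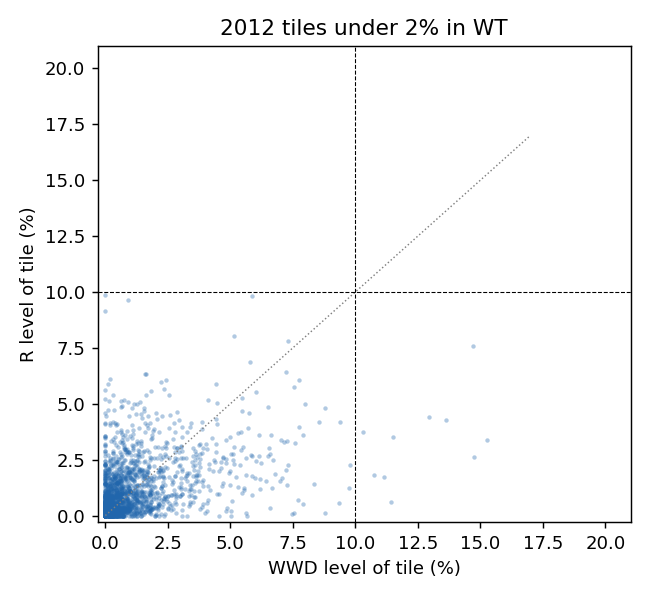
Each point is 1 of the 2012 tiles under 2% in WT that were read in both pools, with its WWD level (percent) on the horizontal axis and its R level (percent) on the vertical axis. The dotted line marks equal levels and the dashed lines 10%; points beyond 10% in WWD lie at R levels under 10%, and no plotted tile passes 10% in R.

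The WWD values depended on how deeply a position was read. Some positions had far fewer reads in the TKO and WWD tables than in WT, so positions with at least 0.5 times as many TKO as WT reads were called full depth, and the others, including those absent from the TKO table, reduced. Of the 20734 positions in the unmethylated tiles, 59.5% were at full depth, where WWD held 0.463%, R 0.883%, C 0.167% and TKO 0.143%. At reduced-depth positions, with a median of 19 reads in WWD and 16 in TKO, WWD held 2.33%, R 1.46%, C 0.349% and TKO 1.16%. Over positions read in R, WWD and C, the WWD gain over C was 41.5% of the R gain at full depth and 176% at reduced depth. Over all 18322 such positions it was 100.5%, with a mean of 1.08% in R and 1.08% in WWD. The same ratio in the comparison tiles was 25.2% at full depth, 63.2% at reduced depth and 45.1% over all. In the unmethylated tiles R was thus above WWD at full depth and below it at reduced depth. The part of depth in the WWD values was not tested further.

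Single methylated positions inside these tiles were nearly all at reduced depth. In WWD, 219 positions in 201 tiles held 20% or more, with a median coverage of 18 reads, and 1 of them was at full depth. In R, 58 positions in 54 tiles did so, 3 of them at full depth, out of 12328 full-depth positions read. TKO had 60 such positions and C had 3, none at full depth. In the comparison tiles 78.2% of positions held 20% or more in R and 32.9% in WWD.

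One tile was called higher in R than in C, on chromosome 15 from 22296001 to 22297000. Its 8 positions lie within 99 bp, and the nearest CpG-dense tile is 2998 tiles away. Over these positions R held 9.13% (27 of 326 read calls), WT 1.92%, and C 0% (0 of 346, which allows up to 0.867%). WWD and TKO were read at 5 of the 8 positions, with 0 of 269 and 0 of 204 read calls, which allow up to 1.12% and 1.47% there. Over the positions of the rule, the highest unmethylated tiles of chromosomes 3, 5, 6, 7 and 16 held more in R. Their levels were 9.64%, 9.35%, 9.81%, 9.88% and 13.4%. The test used 11 positions, with positions below the coverage of the rule added, and gave R 12.6% (40 of 385) and C 0% (0 of 415; adjusted p = 9.61e-14, Fisher's exact test). It was also the tile called higher in R than in WWD, over 8 positions that both pools covered. R held 13.04% (35 of 341) and WWD 2.89% (6 of 347) there (adjusted p = 2.03e-06, Fisher's exact test). The percents are means over positions, on which the minimum of 10 points was set. By the summed read calls in brackets, R and WWD differed by less than 10 points. The same tile was called when only full-depth positions were used, which kept 62.5% of those in the rule. The highest R level of all, 13.4% (29 of 218 read calls) on chromosome 16 from 66933001 to 66934000, had no full-depth position. That tile was chosen after its value was seen, had too few positions in C for a test, and held 0 of 189 read calls in WWD at 4 of its 5 positions, which allows up to 1.59%.

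The 7 tiles called higher in WWD than in C each held a position far above the tile's mean. In all 7 the highest position held 37.5% to 62.5% in WWD, and none of the 7 had the 5 full-depth positions that a test on those alone needs. The highest was on chromosome 19 from 55631001 to 55632000, with a mean of 14.7% in WWD, 7.60% in R, 1.64% in WT, 1.08% in C and 1.08% in TKO (adjusted p = 8.30e-06 against C, Fisher's exact test). One of its 5 positions held 59.3% of 27 reads in WWD, and 23.6% in R, and without it the mean was 3.59%. The next, on chromosome 19 from 29141001 to 29142000, held 13.6% and 1.40% without a position at 62.5% of 24 reads. A tile on chromosome 4 from 141628001 to 141629000 held 12.9%, and 1.70% without a position at 57.9% of 19 reads. A tile on chromosome 12 (86792001 to 86793000) held 11.5%, and 4.93% without its highest position. The tile on chromosome 11 (98308001 to 98309000) held 11.1% and kept 7.33%. These levels are means over positions. Over summed reads WWD held 7.74%, 2.84%, 4.07%, 7.44% and 10.1% in these tiles, in the order named. TKO held 3.33% (2 of 582 read calls) in the tile on chromosome 4 and 0.357% in that on chromosome 11. It had too few positions for a level in the second tile on chromosome 19 and the tile on chromosome 12. The highest WWD level, 15.3% on chromosome 12 from 12847001 to 12848000, in a tile also chosen after its value was seen, was not called (adjusted p = 0.0326, Fisher's exact test), and there TKO held 5.70% and C 2.87%.

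Tiles with many positions gave the firmest low values. In the tile on chromosome 8 from 28239001 to 28240000 all 15 positions were at full depth and lie within 145 bp. R held 0.212% (10 of 4856 read calls), WWD 0.222% (8 of 3826), C 0.0327% (1 of 3115) and TKO 0.0820%. On chromosome 13 from 22142001 to 22143000, also with 15 full-depth positions, R held 0.106% (3 of 2772), WWD 0.297% (8 of 2815), C 0% (0 of 2383, which allows up to 0.126%) and TKO 0.0840%. The other tiles named for their number of positions lie on chromosome 8 (125135001 to 125136000, and 63966001 to 63967000) and chromosome 6 (149137001 to 149138000). They held 0.603%, 0.494% and 0.401% in R and 0.675%, 0.421% and 0.117% in WWD. In the same order TKO held 1.09%, 0.585% and 0.217%, and C 0% (0 of 2563 read calls, which allows up to 0.117%), 0.380% and 0.0627%. By these means over positions TKO, with no construct, was above R and WWD in the first and second of these 3 tiles. By summed reads TKO was below R in both. In the first, TKO had 4 of 2896 read calls, R 11 of 3094 and WWD 2 of 2259. In the second, TKO had 4 of 2787, R 21 of 3436 and WWD 17 of 2787.

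The unmethylated tiles had their CpGs closer together than comparison tiles with the same number of positions. The median gap between neighbouring CpGs was 13 bp (quartiles 9 and 20.5) against 22.5 bp (15 and 33). The positions of a tile spanned a median of 176 bp against 282 bp. Both were smaller in 19 of 19 autosomes. The share of positions read on both strands was also lower, at a median of 18.2% against 33.3%. Of the unmethylated tiles 34.5% had a gap of 10 bp or less, and of the comparison tiles, without weighting, 8.83%. Positions in RRBS sit within reads of a cut site, so the gap describes CpGs that were read, not every CpG of the tile.

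Spacing went with the R level over all 46090 tiles, where R had no part in the choice. With a median gap of 10 bp or less, 13.2% of tiles were under 2% in R and the median was 28.7%. The share fell over the classes of wider gaps, to 6.86%, 4.06%, 2.53% and 1.23%, and was 0.818% above 50 bp, where the median R level was 42.3%. In tiles with 8 to 10 positions the share went from 13.7% to 0.159%. The share of tiles under 2% in WT ran the same way, from 14.6% to 0.946%. Within the unmethylated tiles the R median rose with the gap from 0.449% to 1.68%, and that of WWD from 0.344% to 1.90%. These are trends across tiles, with no test, and the tiles share their pools.

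**Figure D3:**
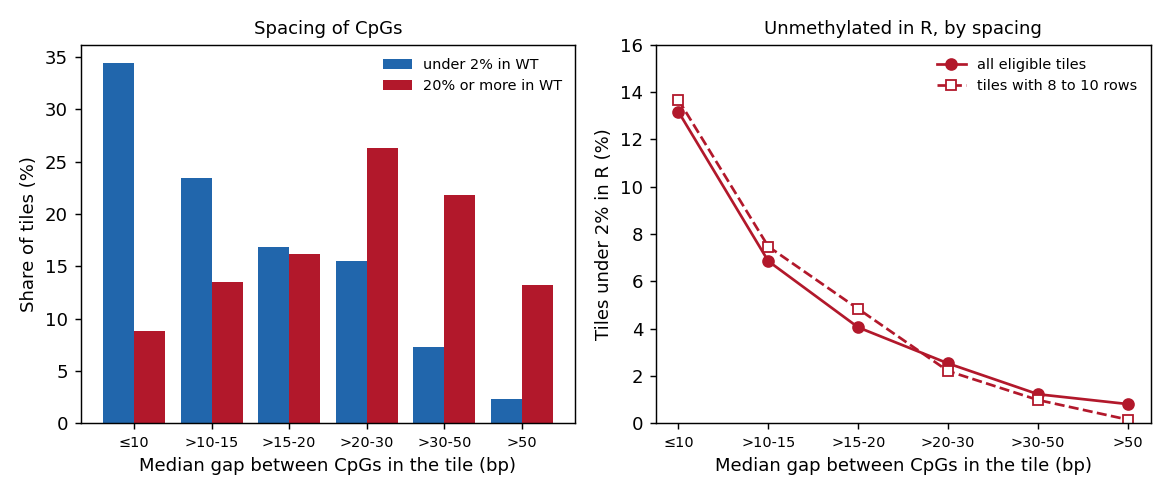
Left, the share of tiles (percent) in 6 classes of median gap between CpGs (bp), in blue for tiles under 2% in WT and in red for tiles at 20% or more. Right, the share of tiles under 2% in R by the same classes, for all tiles (filled circles) and for tiles with 8 to 10 positions (open squares). The blue bars are highest at gaps to 10 bp, with 34.5% of tiles, and the R share falls from 13.2% to 0.818%.

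More positions in a tile also went with a larger unmethylated share. It was 2.28% of tiles with 5 positions and 17.6% of tiles with 15. In R the share under 2% was 1.77% and 14.3%. In the same order the median R level within the unmethylated tiles was 1.10% and 0.613%. The comparison tiles held 43.4% in R at 5 positions and 38.6% at 15.

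The unmethylated share also differed with the distance to CpG-dense tiles. The unmethylated tiles lay a median of 30 tiles from the nearest CpG-dense tile, against 36 for the comparison, and were nearer in 14 of 19 autosomes. They made up 6.02% of tiles 3 to 5 tiles away and 3.29% of those over 100 tiles away. Even in the farthest class, 405 tiles were unmethylated. The R median in the unmethylated tiles lay between 0.575% and 0.842% in all 6 distance classes, with 0.788% in the farthest, so those far from dense tiles held little in R as well.

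Methylation in R was higher with distance from the unmethylated positions. At positions 1 to 50 bp outside the outermost position of the tile, R held a mean of 1.17%, and 1.13% at 51 to 100 bp. It held 1.71% at 101 to 200 bp, 4.08% at 201 to 500 bp, 10.7% beyond 500 and up to 1000 bp, and 24.3% beyond 1000 and up to 2000 bp. WWD ran from 1.0% to 13.7% over the same distances, and C from 0.219% to 0.625%. Around the comparison tiles the R mean lay between 37.95% and 42.0% over these distances. At 2001 to 5000 bp, where CpG-dense tiles are allowed by the rule, R held 14.4% around the unmethylated tiles and 23.4% around the comparison tiles. Positions nearest a tile's outermost one can lie in the same tile at lower coverage, or just across its border.

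**Figure D4:**
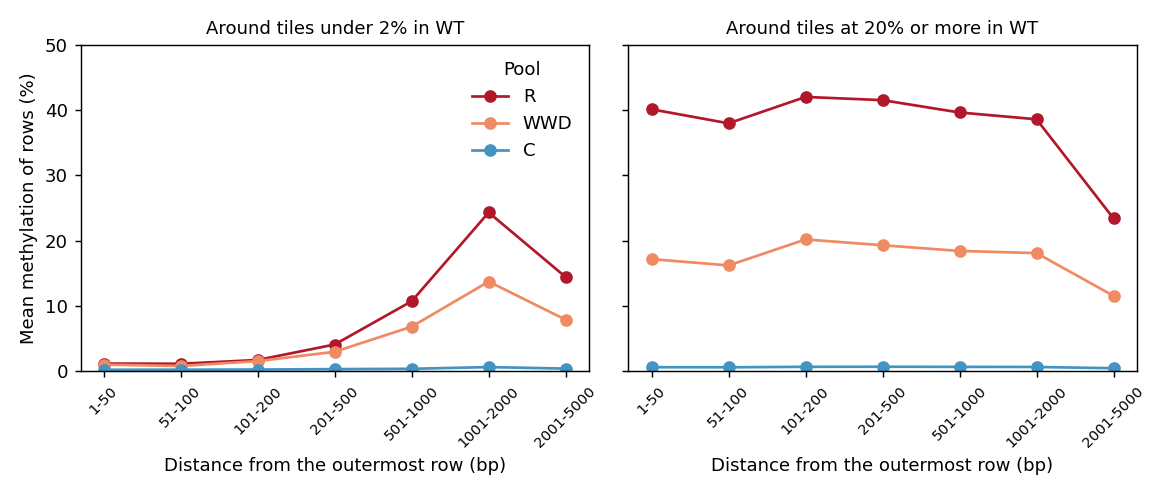
Mean methylation (percent) in R, WWD and C of positions outside the outermost position of a tile, by distance (bp), for tiles under 2% in WT (left) and at 20% or more (right). On the left R rises from 1.17% to 24.3% at 1 to 2 kb and is lower beyond, where CpG-dense tiles can lie; on the right R stays near 40.1% to 38.6% before it falls at the same distance.

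In the neighbouring tiles R was also low next to the unmethylated ones and higher from 2 tiles away. The rule bars CpG-dense tiles within 2 tiles, around both classes, so the nearest neighbours are sparse tiles only. Of the tiles directly next to an unmethylated one, 1639 of 4450 were read in R, with a median of 2.24%, and 48.7% of them were under 2%. At 2 tiles away the median was 29.8% (825 tiles read), at 3 tiles 28.7% and at 5 tiles 26.7%. Around the comparison tiles it was 42.6% next to them and 41.3% at 2 tiles. Of the 2225 unmethylated tiles, 1768 had no adjacent tile that the rule also chose, while 227 pairs and 1 run of 3 held the other 457 (20.5%). A neighbour with fewer than 5 WT positions at coverage 20 could not be chosen, so these counts do not show that the 1768 stood alone. In 593 tiles (26.7%) the tile and its neighbours together held 20 or more WT positions, against 5.9% of comparison tiles. Whether these positions form 1 cluster across a tile border was not tested. At the other end 817 (36.7%) had no WT position in either neighbour, against 51.3%.

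The run of 3 lies on chromosome 5 from 31013001 to 31016000. Its tiles held 1.62%, 0.206% and 0.210% in R, 1.57%, 0.154% and 0.546% in WWD, and 0.0783%, 0% and 0.249% in C, in order along the chromosome. The 0% in C is 0 of 1138 read calls and allows up to 0.264%. The first of the 3 is just inside the limit, at 1.998% in WT.

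By the median over tiles, unmethylated tiles with many read positions were lower in R and WWD, and higher in C and TKO. Over summed reads they were lower in each of R, WWD, C and TKO. Of the 16502 autosomal tiles with 20 or more positions at coverage 20, 80.6% were under 2% in WT, against 4.83% of the sparse tiles. In those 13308 dense tiles the R median was 0.312%, and 0.469% over summed reads, beside 0.709% and 0.991% in the sparse unmethylated tiles. The WWD median was 0.425% beside 0.499%, that of C 0.152% beside 0.115%, and that of TKO 0.207% beside 0.109%. Over summed reads WWD held 0.333% beside 0.565%, C 0.163% beside 0.197%, and TKO 0.156% beside 0.179%. In R 0.00751% of these dense tiles held 5% or more, beside 2.07% of the sparse ones. The median gap was 7.00 bp in them. With more positions a tile's mean spreads less, so the shares past a level are not on an equal footing.

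The limit of 2% cut a continuous range. The 303 tiles from 1.5% to 2% in WT had a median of 2.32% in R and 1.53% in WWD, and the 232 tiles from 2% to 2.5% had 2.98% and 1.49%. Tiles at 0% in WT had 0.217% in R, those above 0% and under 1% had 0.470%, and those from 1% to 2% had 1.97%. Just inside the limit, the tile on chromosome 7 (148465001 to 148466000) held 1.82% in R and 1.52% in WWD. The one on chromosome 12 (85441001 to 85442000) held 2.46% and 0%, from 0 of 1043 read calls, which allows up to 0.288%. Just outside lay tiles of chromosome 14 (71022001 to 71023000), chromosome 5 (94177001 to 94178000) and chromosome 17 (6271001 to 6272000). They held 3.70%, 2.40% and 7.68% in R and 0.619%, 0% (0 of 387 read calls, allowing up to 0.775%) and 7.82% in WWD.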

How the data were processed

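Genomic DNA of 9 samples was cut with MspI, fragments of 150 to 250 and 250 to 400 bp were kept, and bisulfite-treated DNA was amplified and sequenced, per the labels' protocols. Bismark, methylKit and the build mm9 appear in the submitters' processing notes, with no versions. Per the file headers, the authors deposited a read count (coverage) and the percent of reads with C for each CpG position and strand, and the values show a minimum of 10 reads. The 2 samples of a group share 1 table; how they were joined is not given in the sources used here. One of the 6 tables names no sample, and 8 value columns were not used. Methylated reads were taken as coverage times percent, rounded.

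A tile's level is the mean percent over its WT positions at coverage 20 or more that the pool covers 10 or more times, with at least 5. The tests used all positions that both pools cover 10 or more times. The code was checked on simulated data and run with python 3.11.15, pandas 2.3.3, numpy 2.4.6 and numba 0.67.0. The regions and comparisons were chosen with earlier results of these data known. Regions named were, by rule, those called higher in R (up to 8) or WWD (up to 5) than in C, the 5 with most positions read in all pools, the longest runs, and the 3 on each side of 2%. The tiles with the highest R and the highest WWD level were added after their values were seen. Genes and sequences are not named, since no mm9 annotation or genome was used here. Alternatives changed the coverage minimums, the limits of the rule, the call threshold, the strands, the reference pool and the way reads were summed.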

Additional observations from a re-analysis of the deposited data

How the results depend on the processing

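Settings named as added were chosen once the data had been seen, and the cause of each shift was not tested unless the setting's construction shows it. No paired analysis was possible because each group has 1 deposited table. The number of tiles chosen was 3600 with WT under 5% and 1569 to 2338 under the other rules. The median R level in them was 0.991% from summed reads, 0.492% at full-depth positions, 0.721% without the highest coverages, 0.667% with strands merged, 0.743% with a rule at coverage 10, 0.422% with WT under 1%, 1.77% with WT under 5%, and 0.695% with dense tiles counted at coverage 20 or kept 5 tiles away. For WWD it was 0.386% at coverage 20, 0.565% from summed reads, 0.298% at full depth, 0.467% with strands merged, 0.344% with WT under 1%, 0.960% with WT under 5%, and 0.510% with tiles shifted by 0.5 kb (added). The R median was above the WWD median under each setting of the levels and the rule. Tiles at 20% or more numbered 1 in R with the rule at coverage 10, and 3 in R and 1 in WWD with WT under 5%.

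Tiles called R over C, WWD over C and R over WWD numbered 0, 0 and 0 with divided counts, 0, 0 and 0 at 25 points, and 33, 61 and 9 at 5 points. Added settings gave 603, 295 and 235 with no minimum difference, 338, 132 and 186 with full-depth positions and no minimum, and 4, 0 and 2 with divided counts and no minimum. Full-depth positions at 10 points (added) gave 1, 0 and 1. The 7 tiles called for WWD over C had too few full-depth positions to enter that test. With TKO in place of C there were 2 for R and 4 for WWD, and coverage 20 in both pools gave 2 for R over C. Depth limits single positions most, at a median of 19 reads in WWD and 16 in TKO for the reduced-depth positions.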

Other observations

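The tiles between the chosen ones and the comparison had intermediate levels in the mutants. In the 8716 tiles from 2% to 20% in WT, the median was 13.97% in R, 5.10% in WWD, 0.213% in C and 0.144% in TKO. In R 1864 of 8701 (21.4%) held 20% or more, and 132 were under 2%. In WWD 207 of 7977 (2.59%) held 20% or more and 1629 (20.4%) were under 2%. Their median gap between CpGs was 20.5 bp, between the 13 bp and 24 bp of the other classes without weighting by number of positions.

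The unmethylated tiles were spread unevenly. Of 2380 windows of 1 Mb with any tile of this kind, 996 held an unmethylated one and 465 held 1. The windows with the most, chosen for their count, were chromosome 3 from 96000001 to 97000000 with 17 of 49 tiles (34.7%), chromosome 7 from 4000001 to 5000000 with 14 of 48, and chromosome 17 from 33000001 to 34000000 with 11 of 36. Their median R levels were 0.664%, 0.425% and 0.574%. By autosome the share ran from 3.52% on chromosome 5 to 7.56% on chromosome 7, with 7.22% on chromosome 17 and 6.64% on chromosome 13.

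In 14 of the 1869 tiles read in TKO, the level was 5% or more, with a median of 6.71%. In them the median share of full-depth positions was 34.3%, beside 60% in all the unmethylated tiles, and the median was 0% in C.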
